A study of Mus musculus with 6 samples.

Results

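The genes described are 32 genes of cholesterol and fatty acid synthesis, taken by symbol from a deposited table of gene expression in mouse skin. All 32 were among the 35434 symbols of the table, and all passed the filter on low values that left 13945 genes for testing. They comprise 17 enzymes of cholesterol synthesis, 4 genes of sterol sensing and sterol transport, and 11 enzymes that supply, build, lengthen or desaturate fatty acids. Bulk RNA-seq was run on lesional skin from a mouse model of psoriasis after transfer of regulatory T cells (Tregs). In the Lenv-Treg group (3 libraries) the transferred cells were Tregs treated with lenvatinib, an inhibitor of receptor tyrosine kinases. In the Ctrl-Treg group (3 libraries) they were control Tregs, so that both groups carried the disease and a Treg transfer. Strain, age, the way the disease was induced, the number of cells transferred and a group without transfer are not given in the labels, nor whether the 3 libraries of a group, numbered 1 to 3, came from separate mice. The p-values therefore reflect only how much these libraries vary, part of which may be technical. The keratinocyte gene Krt14 was abundant in every library, at 4417, 4571 and 4294 FPKM in Lenv-Treg and 922.9, 610.9 and 774.3 FPKM in Ctrl-Treg.

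Cholesterol and fatty acids are both built from cytosolic acetyl-CoA. Genes of both branches are activated by the sterol regulatory element-binding proteins, of which the product of Srebf2 acts mainly on cholesterol synthesis and that of the insulin- and LXR-responsive Srebf1 more on fatty acid synthesis. When sterols are plentiful, INSIG proteins hold these factors in the endoplasmic reticulum, and Insig1 is itself one of their target genes. In skin, keratinocytes make cholesterol and fatty acids for the barrier, sebaceous glands make them for sebum, and dermal adipocytes make fatty acids for storage.

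Promoter sequences are shown first because the sterol regulatory element-binding proteins and their partner NF-Y bind near the start sites of many genes of both branches. RefSeq promoter windows of GRCm38.p6, from 250 bases before to 50 bases after the start, were at hand for 26 of the 32 genes, with 32 windows in all. Fads1, Fdft1, Fdps, Scd2, Sqle and Stard4 had none. Both strands were searched for a sterol regulatory element (TCACNCCAC), the NF-Y box (CCAAT), the E-box (CACGTG) and the GC box (GGGCGG). The NF-Y box was in 24 of the 32 windows (75%), against 37.1% of the 13858 windows of tested genes and 37.4% of all 32851 windows. It was in 14 of 17 windows of cholesterol synthesis enzymes (82.4%) and in 6 of 10 windows of fatty acid synthesis enzymes (60%). The sterol regulatory element in this spelling was in 1 of the 32 windows (3.12%), that of Hmgcs1, against 1.12% of windows of tested genes and 1.24% of all windows. The E-box was in 5 windows (15.6%), against 9.56% of tested and 7.15% of all windows, and the GC box in 22 (68.8%), against 59.5% and 35.7%. A match is a description of letters and not a bound site. The 4 windows below were chosen after the matches were seen: the only window with the sterol element, 2 genes of cholesterol synthesis that were higher in Lenv-Treg and hold several NF-Y boxes, and Fasn, which was lower in Lenv-Treg. They lie at chr13:119690101-119690400 (Hmgcs1, plus strand), chr5:114444019-114444318 (Mvk, plus strand), chr1:169969156-169969455 (Hsd17b7, minus strand) and chr11:120824498-120824797 (Fasn, minus strand), each written from its own strand. Capitals mark the NF-Y box (CCAAT, or ATTGG where it lies on the other strand) and, in Hmgcs1, the sterol element. The bases after the RefSeq start lay in a GENCODE transcript of the gene for Mvk, Hsd17b7 and Fasn, but not for Hmgcs1.
Hmgcs1: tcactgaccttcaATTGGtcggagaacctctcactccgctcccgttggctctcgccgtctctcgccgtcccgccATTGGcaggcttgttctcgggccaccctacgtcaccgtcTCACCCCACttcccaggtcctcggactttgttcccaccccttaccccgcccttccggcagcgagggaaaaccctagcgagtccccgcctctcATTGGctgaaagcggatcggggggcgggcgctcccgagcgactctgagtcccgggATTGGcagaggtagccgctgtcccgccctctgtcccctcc
Mvk: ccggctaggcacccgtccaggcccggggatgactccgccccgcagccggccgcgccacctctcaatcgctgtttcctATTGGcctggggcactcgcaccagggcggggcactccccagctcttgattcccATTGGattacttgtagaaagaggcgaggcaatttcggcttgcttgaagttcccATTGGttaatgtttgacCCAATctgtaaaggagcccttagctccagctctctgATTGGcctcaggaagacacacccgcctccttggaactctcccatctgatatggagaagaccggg
Hsd17b7: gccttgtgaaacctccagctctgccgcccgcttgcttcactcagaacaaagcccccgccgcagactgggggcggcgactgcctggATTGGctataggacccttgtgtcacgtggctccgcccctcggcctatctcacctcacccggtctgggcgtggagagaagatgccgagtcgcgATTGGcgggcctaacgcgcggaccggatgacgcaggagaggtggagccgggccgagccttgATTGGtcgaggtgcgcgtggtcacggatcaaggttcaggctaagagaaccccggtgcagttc
Fasn: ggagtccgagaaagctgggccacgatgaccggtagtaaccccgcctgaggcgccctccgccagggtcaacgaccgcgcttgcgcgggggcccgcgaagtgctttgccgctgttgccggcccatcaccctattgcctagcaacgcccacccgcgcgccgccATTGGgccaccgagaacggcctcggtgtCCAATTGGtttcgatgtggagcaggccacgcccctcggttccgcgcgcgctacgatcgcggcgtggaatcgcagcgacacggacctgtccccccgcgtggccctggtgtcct
Hmgcs1 held 4 NF-Y boxes and Mvk held 5, while Hsd17b7 and Fasn held 3 each. In Fasn a pair of boxes at -62 and -59 overlapped on opposite strands, and in the other 3 windows no capitalised matches overlapped.

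The comparison asked how lesional skin differed after transfer of Lenv-Treg rather than Ctrl-Treg cells. As deposited, the branches differed in opposite directions. Of the 17 cholesterol synthesis enzymes 8 were higher in Lenv-Treg and 0 were lower, with a median difference of 0.33 on the log2(FPKM + 1) scale. Of the 11 fatty acid synthesis enzymes 0 were higher and 10 were lower, with a median of -1.09. Among all 32 genes 9 rose and 12 fell (limma on log2(FPKM + 1), Benjamini-Hochberg adjustment over all tested genes, threshold 0.05). These 21 genes are 65.6% of the 32, against 41.7% of all tested genes past the threshold (11% higher and 30.8% lower). The values of the 2 groups did not overlap in 24 of the 32 genes, against 55.4% of all tested genes. In the plot of levels by library, the Lenv-Treg libraries lie left of the Ctrl-Treg mean for the fatty acid enzymes other than Scd2 and mostly right of it for the cholesterol enzymes.

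**Figure D1:**
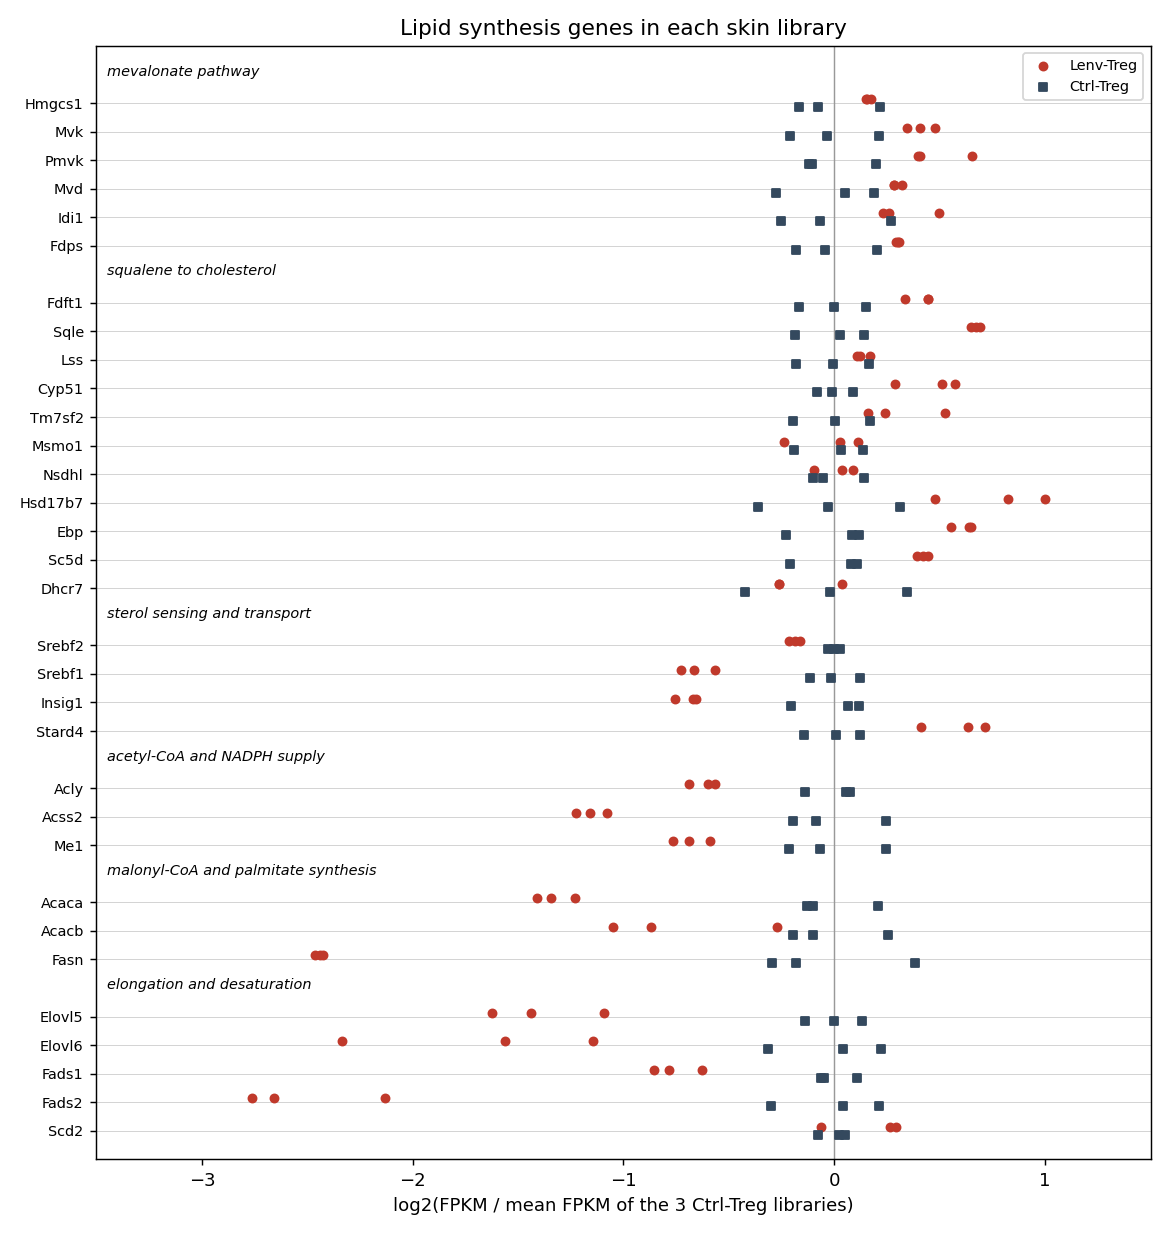
Level of each of the 32 genes in each of the 6 libraries, as log2 of FPKM over the mean FPKM of the 3 Ctrl-Treg libraries (x axis), with genes by role down the page, red circles for Lenv-Treg and dark squares for Ctrl-Treg. In 24 of the 32 genes the circles and squares do not overlap, with 11 of these higher and 13 lower in Lenv-Treg.

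The counts of higher genes depended on how libraries were put on one scale. Depth was even, at 38704536 to 40248462 assigned reads recovered from the FPKM values, but FPKM values summed to 543189 to 612665 in Lenv-Treg libraries and 458848 to 499306 in Ctrl-Treg libraries. Over all tested genes the median was -0.17 as deposited, 0.02 after scaling by the median of ratios and -0.44 after rescaling to TPM. With median-of-ratios scaling 14 of the 17 cholesterol enzymes rose (median 0.56), against 18.3% of all tested genes higher and 16.3% lower. With TPM 2 of the 17 rose (median 0.05), against 6.79% of all tested genes higher and 57.2% lower. None of the 17 fell under either scaling or after quantile normalization. Of the 11 fatty acid enzymes 9 fell and 1, Scd2, rose after median-of-ratios scaling (median -0.87), while 10 fell and 0 rose with TPM (median -1.40). Sqle and Ebp rose and 11 genes fell under each of the scalings run, these 11 being Srebf1, Insig1 and all fatty acid enzymes other than Acacb and Scd2.

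**Figure D2:**
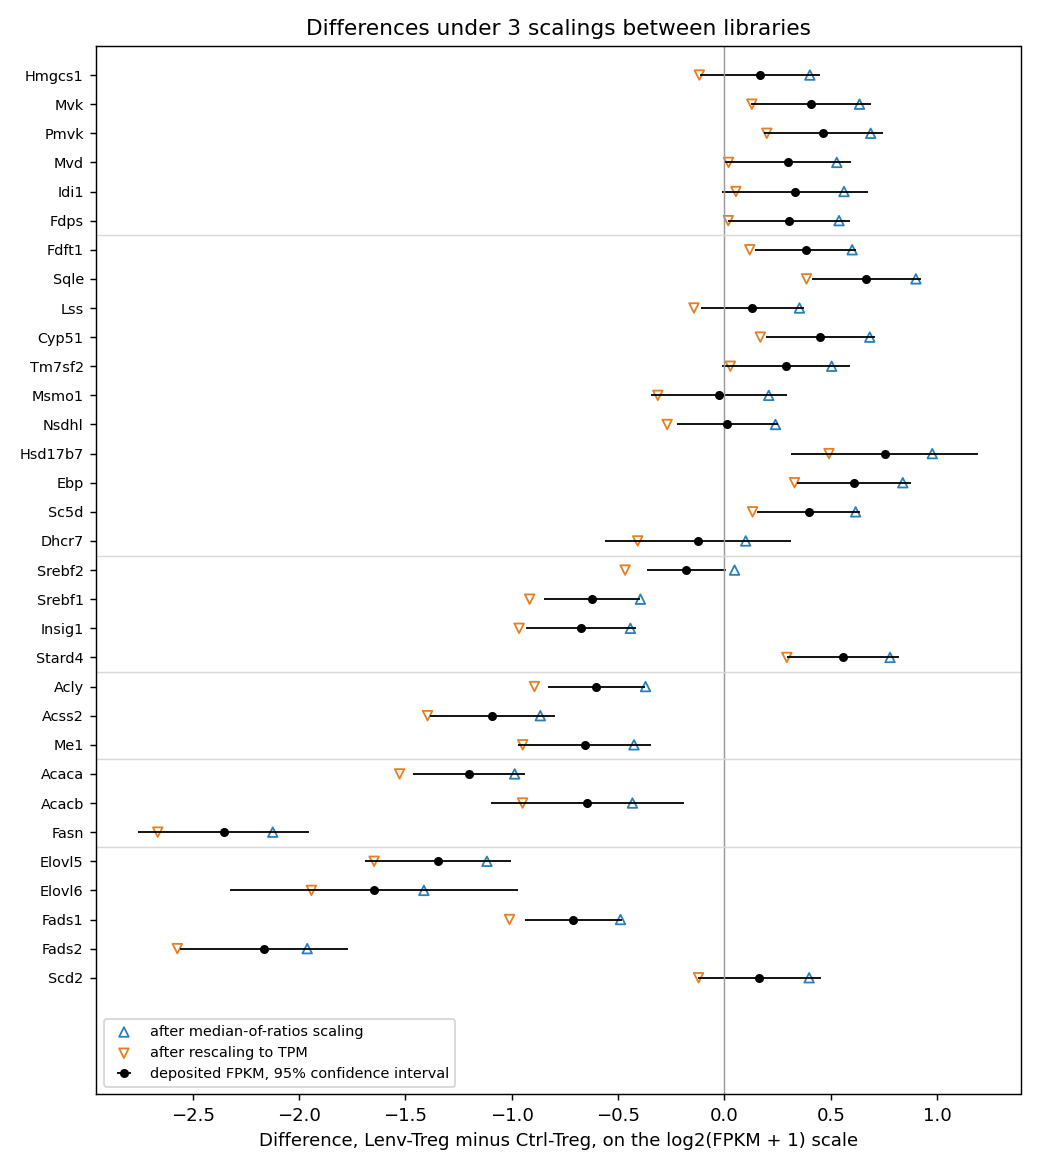
Difference of each gene on the log2 scale (x axis, Lenv-Treg minus Ctrl-Treg) for deposited FPKM with its 95% confidence interval (black), after median-of-ratios scaling (blue) and after rescaling to TPM (orange). All blue points lie to the right and all orange points to the left of the black ones, and the fatty acid enzymes other than Scd2 stay below 0 in all 3.

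The sums of each branch depend on that scaling, but their ratio within a library does not. The FPKM of the 17 cholesterol enzymes summed to 878.4, 827.4 and 856.7 in the Lenv-Treg libraries, against 699.1, 611.8 and 777.1 in the Ctrl-Treg libraries. That of the 11 fatty acid enzymes summed to 375.3, 308.6 and 311.1 in Lenv-Treg, against 659, 691.2 and 656.7 in Ctrl-Treg. Neither sum of deposited FPKM overlapped between the groups. Rescaled to TPM, the cholesterol sums were 1617, 1428 and 1398 in Lenv-Treg and 1515, 1333 and 1556 in Ctrl-Treg and overlapped, whereas the fatty acid sums were 691, 532.7 and 507.7 in Lenv-Treg and 1428, 1506 and 1315 in Ctrl-Treg and did not overlap. The ratio of the cholesterol sum to the fatty acid sum was 2.34, 2.68 and 2.75 in Lenv-Treg libraries, against 1.06, 0.885 and 1.18 in Ctrl-Treg libraries. Its mean was 2.59 ± 0.22 in Lenv-Treg and 1.04 ± 0.15 in Ctrl-Treg (SD, n = 3 each), and every Lenv-Treg library lay above every Ctrl-Treg library. With 3 against 3 libraries an exact permutation test cannot go below p = 0.1 (two-sided), so no such test is given for these ratios. The 32 genes took 0.521%, 0.465% and 0.473% of assigned reads in Lenv-Treg, against 0.654%, 0.671% and 0.679% in Ctrl-Treg. The share of reads was therefore lower in Lenv-Treg for the whole list while that of the cholesterol enzymes was higher, at 0.262%, 0.246% and 0.254% in Lenv-Treg and 0.207%, 0.181% and 0.228% in Ctrl-Treg.

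**Figure D3:**
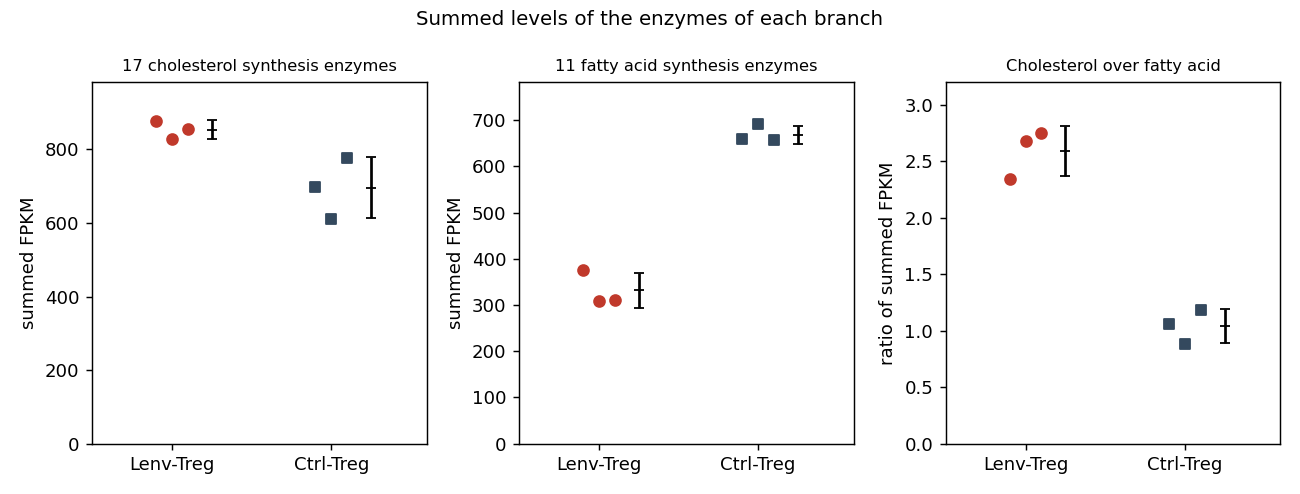
Summed FPKM of the 17 cholesterol synthesis enzymes (left), of the 11 fatty acid synthesis enzymes (middle) and their ratio (right) in each library, with red circles for Lenv-Treg, dark squares for Ctrl-Treg and bars for the mean ± SD (n = 3). The ratio lies between 2.34 and 2.75 in Lenv-Treg and between 0.885 and 1.18 in Ctrl-Treg.

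The mevalonate pathway makes the isoprenoid units of sterols. Of its 6 enzymes 2 rose and 0 fell, with a median difference of 0.32. Hmgcs1, which condenses acetyl-CoA with acetoacetyl-CoA and whose window holds the sterol element shown above, had 104.5, 103.1 and 102.7 FPKM in Lenv-Treg and 87.74, 82.47 and 107.4 FPKM in Ctrl-Treg. The groups overlapped because Ctrl-Treg 3 was the highest of all 6, and the difference did not pass (0.17 ± 0.12 SE, adjusted p = 0.294). Fdps, farnesyl diphosphate synthase, had the highest mean of the 6 enzymes, at 150.7, 150.2 and 149.2 FPKM in Lenv-Treg and 118.3, 107.5 and 140.2 FPKM in Ctrl-Treg. Its groups did not overlap, but the spread in Ctrl-Treg was wide and the difference missed the threshold (0.30 ± 0.12 SE, adjusted p = 0.0831). Mvk, mevalonate kinase, had 35.22, 36.81 and 38.68 FPKM in Lenv-Treg and 27.15, 23.97 and 32.19 FPKM in Ctrl-Treg. Its groups did not overlap, and it rose by 0.41 (SE 0.12, adjusted p = 0.0307). Pmvk, the kinase of the next step, had 18.38, 18.49 and 21.92 FPKM in Lenv-Treg and 12.84, 12.97 and 16 FPKM in Ctrl-Treg. All 3 Lenv-Treg libraries lay above all 3 Ctrl-Treg libraries, and it rose by 0.47 (SE 0.12, adjusted p = 0.0183). Mvd, which decarboxylates mevalonate diphosphate, differed by 0.30 (adjusted p = 0.0932) and the isomerase Idi1 by 0.33 (adjusted p = 0.105).

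The calls of this pathway changed when a library was left out. The call of Mvk was lost without any 1 of 5 libraries, all but Ctrl-Treg 3 (adjusted p up to 0.091), and that of Pmvk without Lenv-Treg 3, Ctrl-Treg 1 or Ctrl-Treg 2 (adjusted p up to 0.0588). Without Ctrl-Treg 3, the Ctrl-Treg library with the highest sum of cholesterol enzymes, Mvd (adjusted p = 0.0495), Idi1 (adjusted p = 0.0306) and Fdps (adjusted p = 0.0352) passed as higher. With TPM none of the 6 passed in either direction, and with median-of-ratios scaling all 6 rose.

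From squalene to cholesterol, 6 of 11 enzymes rose and 0 fell, with a median difference of 0.38. Sqle, squalene epoxidase, which catalyses a rate-limiting oxidation of squalene, had 88.45, 89.88 and 87.2 FPKM in Lenv-Treg and 56.6, 48.78 and 61.36 FPKM in Ctrl-Treg. The groups were far apart relative to their spread, with means of 88.5 ± 1.34 and 55.6 ± 6.35 FPKM (SD, n = 3 each) in Lenv-Treg and Ctrl-Treg, a ratio of 1.59. Its difference was 0.67 (SE 0.11, adjusted p = 0.00284). Ebp, the sterol isomerase, had 52.52, 55.74 and 56.19 FPKM in Lenv-Treg and 38.83, 30.57 and 37.98 FPKM in Ctrl-Treg, without overlap. The ratio of its means was 1.53 and the difference 0.61 (SE 0.11, adjusted p = 0.00525). Cyp51, the lanosterol demethylase, had 72.92, 62.53 and 75.94 FPKM in Lenv-Treg and 50.81, 48.26 and 54.36 FPKM in Ctrl-Treg. Its groups did not overlap and it rose by 0.45 (SE 0.11, adjusted p = 0.0144), a call lost with TPM (0.17, adjusted p = 0.195).

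Hsd17b7, which reduces sterol ketones, had the largest difference of the branch at 0.75 (SE 0.19, adjusted p = 0.0164), with a ratio of means of 1.72. Fdft1, squalene synthase, rose by 0.38 (adjusted p = 0.0209) and Sc5d, a sterol desaturase, by 0.40 (adjusted p = 0.0192). These 3 calls were lost with TPM and without Lenv-Treg 2, where the adjusted p was 0.0565 for Hsd17b7 and 0.0622 for Sc5d, and that of Fdft1 also without Lenv-Treg 3 or Ctrl-Treg 2 (adjusted p up to 0.0729). Without Lenv-Treg 2, 4 of the 17 cholesterol enzymes were called, and without Lenv-Treg 3 or Ctrl-Treg 2, 5 of the 17.

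Other steps between squalene and cholesterol did not pass. Msmo1, the sterol methyl oxidase and the most abundant enzyme of these 11, had 137.1, 107.7 and 129.4 FPKM in Lenv-Treg and 129.7, 111.3 and 139.6 FPKM in Ctrl-Treg. The groups overlapped fully, with a difference of -0.03 (95% confidence interval -0.35 to 0.30, adjusted p = 0.897). Dhcr7, the reductase of the last step of one route, differed by -0.12 (95% confidence interval -0.56 to 0.31, adjusted p = 0.619) and Nsdhl, a sterol dehydrogenase, by 0.01 (95% confidence interval -0.22 to 0.25, adjusted p = 0.926). Lss, lanosterol synthase, differed by 0.13 (adjusted p = 0.338) and Tm7sf2, a sterol reductase, by 0.29 (adjusted p = 0.108). The confidence intervals of Msmo1, Dhcr7 and Nsdhl leave room for differences of either sign, and those 3 were the cholesterol enzymes whose deposited differences lay nearest to or below 0.

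Regulators and transport genes were mixed, with 1 of 4 higher and 2 lower. Srebf2, the transcription factor gene of the cholesterol branch, had 26.96, 25.99 and 26.54 FPKM in Lenv-Treg and 29.58, 30.75 and 30.15 FPKM in Ctrl-Treg. Every Lenv-Treg value was below every Ctrl-Treg value, but the difference of -0.18 did not pass (95% confidence interval -0.37 to 0.01, adjusted p = 0.106). It passed as lower with TPM (-0.47, adjusted p = 0.00542) and was 0.05 after median-of-ratios scaling. Srebf1, the transcription factor gene more tied to fatty acid synthesis, had 19.5, 17.43 and 18.2 FPKM in Lenv-Treg and 28.53, 31.33 and 26.64 FPKM in Ctrl-Treg. Its groups were well apart, and it fell by 0.62 (SE 0.10, adjusted p = 0.00229). Within libraries the ratio of Srebf2 to Srebf1 was 1.38, 1.49 and 1.46 in Lenv-Treg, against 1.04, 0.981 and 1.13 in Ctrl-Treg. The table gives gene sums, so the transcripts of Srebf1 that start at different promoters are not separated.

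Insig1, the sterol-regulated retention factor, had 38.28, 38.65 and 36.07 FPKM in Lenv-Treg and 52.85, 66.13 and 63.73 FPKM in Ctrl-Treg. It fell by 0.67 (SE 0.11, adjusted p = 0.00284), opposite to the cholesterol enzymes Sqle and Ebp. The ratio of Hmgcs1 to Insig1 was 2.73, 2.67 and 2.85 in Lenv-Treg, against 1.66, 1.25 and 1.69 in Ctrl-Treg. Stard4, a carrier that moves sterols between membranes, had 22.01, 20.84 and 17.85 FPKM in Lenv-Treg and 13.51, 12.14 and 14.61 FPKM in Ctrl-Treg. Its groups did not overlap and it rose by 0.56 (SE 0.11, adjusted p = 0.00719), a call lost with TPM (0.29, adjusted p = 0.089).

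**Figure D4:**
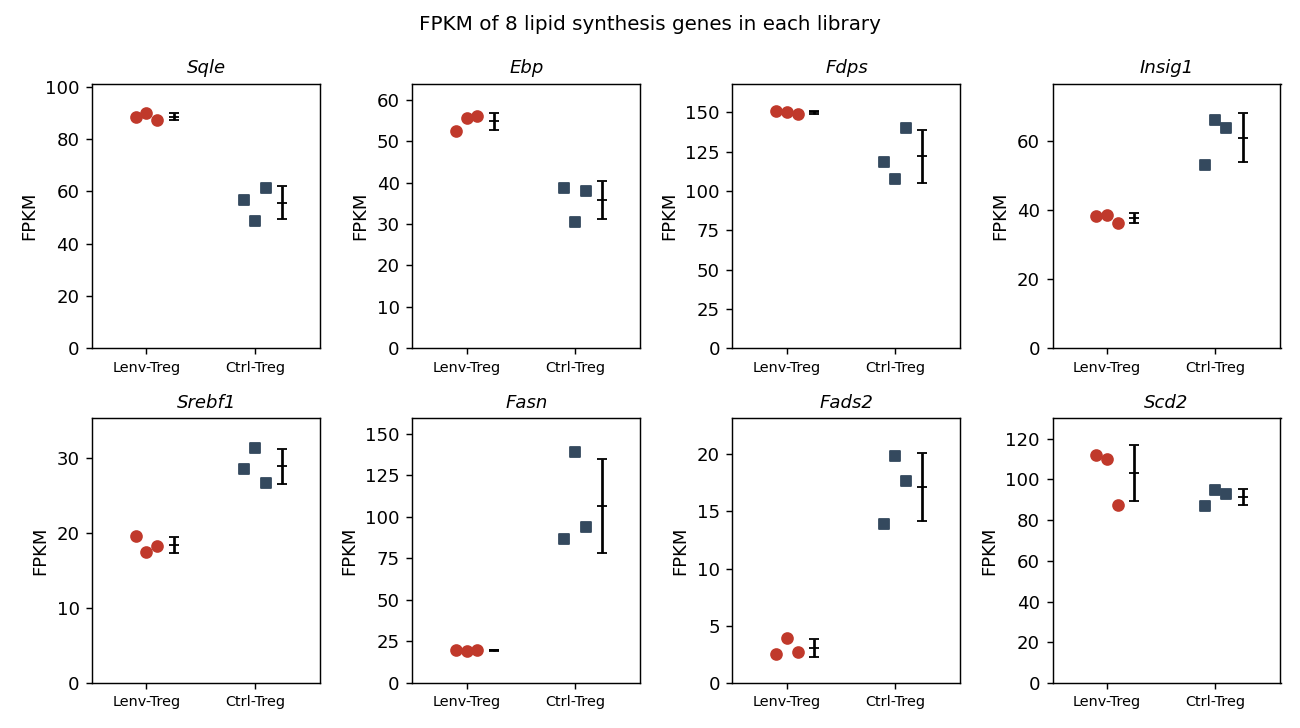
FPKM of 8 genes in each library (y axes from 0), with red circles for Lenv-Treg, dark squares for Ctrl-Treg and bars for the mean ± SD (n = 3). Sqle, Ebp and Fdps lie higher and Insig1, Srebf1, Fasn and Fads2 lower in every Lenv-Treg library, while the groups overlap in Scd2, and the difference of Fdps did not pass the test.

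Cytosolic acetyl-CoA and NADPH are the inputs of fatty acid synthesis, and all 3 genes of their supply fell. Acly, which cleaves citrate to acetyl-CoA, had 36.56, 35.75 and 33.52 FPKM in Lenv-Treg and 49.1, 56.96 and 56.29 FPKM in Ctrl-Treg. The groups did not overlap and Acly fell by 0.60 (SE 0.10, adjusted p = 0.00275). Acss2, which makes acetyl-CoA from acetate, had 15.56, 14.72 and 14.03 FPKM in Lenv-Treg and 28.69, 38.95 and 30.88 FPKM in Ctrl-Treg. Its lowest Ctrl-Treg value was above all Lenv-Treg values, the ratio of means was 0.450, and it fell by 1.09 (SE 0.13, adjusted p = 0.000648). Me1, the cytosolic malic enzyme that yields NADPH, had 46.85, 41.45 and 43.63 FPKM in Lenv-Treg and 60.63, 83.55 and 67.17 FPKM in Ctrl-Treg. Its values were lower in all 3 Lenv-Treg libraries, with a fall of 0.66 (SE 0.13, adjusted p = 0.00727). Acly and Acss2 also supply cholesterol synthesis, of whose 17 enzymes 0 fell.

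All 3 enzymes of malonyl-CoA and palmitate synthesis fell. Fasn, fatty acid synthase, had 19.79, 19.33 and 19.64 FPKM in Lenv-Treg and 86.81, 138.7 and 93.81 FPKM in Ctrl-Treg. The Lenv-Treg values lay within a narrow band far below all Ctrl-Treg values, and Ctrl-Treg 2 was the highest. The mean was 19.6 ± 0.235 FPKM in Lenv-Treg and 106 ± 28.1 FPKM in Ctrl-Treg (SD, n = 3 each), 5.43-fold lower in Lenv-Treg, with a difference of -2.35 (SE 0.17, adjusted p = 0.000117). Without Ctrl-Treg 2 the ratio of means was 0.217, against 0.184 with it. Acaca, the acetyl-CoA carboxylase that supplies malonyl-CoA for synthesis, had 6.99, 6.47 and 6.19 FPKM in Lenv-Treg and 15.02, 18.94 and 15.31 FPKM in Ctrl-Treg. The groups did not overlap, the ratio of means was 0.399, and the difference was -1.20 (SE 0.11, adjusted p = 0.000271). Acacb, the mitochondrial carboxylase whose malonyl-CoA restrains fatty acid oxidation, had 9.93, 5.80 and 6.57 FPKM in Lenv-Treg and 14.3, 11.2 and 10.49 FPKM in Ctrl-Treg. Its groups did not overlap, but Lenv-Treg 1 came close to Ctrl-Treg 3. It fell by 0.64 (SE 0.19, adjusted p = 0.0327), a call lost after median-of-ratios scaling (-0.43, adjusted p = 0.12), after quantile normalization (-0.48, adjusted p = 0.0863) and without any 1 of 4 libraries (Lenv-Treg 2, Lenv-Treg 3, Ctrl-Treg 1 or Ctrl-Treg 2, adjusted p up to 0.106).

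Within libraries, the ratio of Sqle to Fasn was 4.47, 4.65 and 4.44 in Lenv-Treg, against 0.652, 0.352 and 0.654 in Ctrl-Treg. In Lenv-Treg skin squalene epoxidase thus had the higher level per length of the pair in every library, and in Ctrl-Treg skin Fasn did.

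Of the 5 enzymes that lengthen or desaturate fatty acids 4 fell and Scd2 did not pass. Elovl6, which lengthens palmitate to stearate, had 80.4, 35.2 and 60.21 FPKM in Lenv-Treg and 207.6, 142.9 and 183.1 FPKM in Ctrl-Treg. Its Lenv-Treg libraries spread more widely than for other genes here, with Lenv-Treg 2 lowest, yet stayed below all Ctrl-Treg libraries. It fell by 1.65 (SE 0.29, adjusted p = 0.00391). Elovl5, which lengthens polyunsaturated fatty acids, had 32.63, 22.56 and 25.65 FPKM in Lenv-Treg and 76.13, 63.02 and 69.33 FPKM in Ctrl-Treg. The groups were apart, and it fell by 1.35 (SE 0.15, adjusted p = 0.000517). Fads2, a front-end desaturase for polyunsaturated fatty acids that in human sebaceous glands also acts on palmitate, had 2.53, 3.91 and 2.72 FPKM in Lenv-Treg and 13.93, 19.87 and 17.63 FPKM in Ctrl-Treg. It was 5.61-fold lower in Lenv-Treg by means and fell by 2.16 (SE 0.17, adjusted p = 0.000142). The lowest read count behind any value of the 32 genes, 294 reads, was that of Fads2 in Lenv-Treg 1. Fads1, the desaturase encoded beside Fads2, fell by 0.71 (SE 0.10, adjusted p = 0.00133).

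Scd2, a stearoyl-CoA desaturase, stood apart from the rest of the branch. It had 112, 109.9 and 87.45 FPKM in Lenv-Treg and 86.73, 94.71 and 92.71 FPKM in Ctrl-Treg. The groups overlapped, with a difference of 0.16 (95% confidence interval -0.12 to 0.45, adjusted p = 0.315). After median-of-ratios scaling it passed as higher (0.40, adjusted p = 0.0396), and with TPM it was -0.12 (adjusted p = 0.484). Its relative Scd1, the stearoyl-CoA desaturase of sebaceous glands and fat, had 263.2, 156.5 and 228.1 FPKM in Lenv-Treg and 669.2, 876.2 and 570.2 FPKM in Ctrl-Treg, a fall of 1.71 (SE 0.24, adjusted p = 0.00141). The ratio of Scd2 to Scd1 was 0.425, 0.702 and 0.383 in Lenv-Treg, against 0.130, 0.108 and 0.163 in Ctrl-Treg. Similar sequences could share reads between the Scd genes, and no source used here says how such reads were counted. The ratio of Scd2 to Fads2 was 44.3, 28.1 and 32.2 in Lenv-Treg, against 6.22, 4.77 and 5.26 in Ctrl-Treg.

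The branches also differed in which library was highest within a group. Ctrl-Treg 2 had the lowest Ctrl-Treg value of 15 of the 17 cholesterol enzymes and the highest of 8 of the 11 fatty acid enzymes. Ctrl-Treg 3 had the highest Ctrl-Treg value of 14 of the 17 cholesterol enzymes. In Lenv-Treg, replicate 1 had the highest value of 9 of the 11 fatty acid enzymes and of 8 of the 17 cholesterol enzymes. Ctrl-Treg 2 also had the highest summed markers of adipocytes, at 4195 FPKM, and of skeletal muscle, at 11670 FPKM. Leaving out a library moved no ratio of means of these 32 genes by as much as 1.5 times.

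Of 24 other genes of the pathway 12 fell and 1 rose as deposited, with a median of -0.39. Lower calls also outnumbered higher ones among all tested genes (30.8% lower and 11% higher). With TPM 16 fell and 0 rose, against 57.2% of all tested genes lower and 6.79% higher. After median-of-ratios scaling 8 fell and 5 rose, against 16.3% lower and 18.3% higher. The counts of the lists that follow are to be read beside the same shares. The 1 higher call as deposited was lost without any 1 of 4 libraries (Lenv-Treg 1, Lenv-Treg 3, Ctrl-Treg 2 or Ctrl-Treg 3). Slc25a1, the mitochondrial citrate carrier, fell by 0.87 (adjusted p = 0.00141) and Mbtps1, a protease that releases the sterol regulatory element-binding proteins, by 0.68 (adjusted p = 0.00184). Thrsp, a lipogenic nuclear protein, had 10.26, 9.83 and 14.5 FPKM in Lenv-Treg and 55.89, 152.8 and 69.59 FPKM in Ctrl-Treg, a fall of 2.78 (adjusted p = 0.000918).

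The counts for genes of sterol efflux and fatty acid oxidation depended on the scaling. Of 14 LXR target and sterol efflux genes 3 rose and 1 fell (median 0.22), 7 rose and 0 fell after median-of-ratios scaling (median 0.44), 5 rose and 0 fell after quantile normalization, and 2 rose and 3 fell with TPM (median -0.06). The 1 fall as deposited was lost without any 1 of 4 libraries (Lenv-Treg 2, Lenv-Treg 3, Ctrl-Treg 1 or Ctrl-Treg 3). Smpdl3a rose by 0.82 (adjusted p = 0.00649) and the sterol transporter Abcg4 by 0.58 (adjusted p = 0.00443), while the apolipoprotein gene Apoe differed by -0.10 (adjusted p = 0.727). Of 14 tested genes of fatty acid oxidation 3 rose and 0 fell (median -0.03), against 6 higher and 0 lower after median-of-ratios scaling and 1 higher and 4 lower with TPM. Without Lenv-Treg 1 or without Ctrl-Treg 3, 1 of the 14 fell. Pdk4, a kinase that turns off pyruvate dehydrogenase, rose by 2.04 (SE 0.42, adjusted p = 0.00791) and Acadl, an acyl-CoA dehydrogenase, by 0.54 (adjusted p = 0.00538; 0.26 with TPM, adjusted p = 0.106), while Hadha differed by -0.11 (adjusted p = 0.351).

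The cells that make these lipids in skin differed in their markers between the groups. In bulk tissue fewer cells of a type and less RNA per cell cannot be told apart, and none of the marker lists had a gene at 0 in all 6 libraries. Over all tested genes, 11% were higher and 30.8% lower as deposited. After median-of-ratios scaling these shares were 18.3% and 16.3%. Of 15 adipocyte markers 1 rose and 9 fell (median -0.73; 6 fell after median-of-ratios scaling), with summed levels of 2077 to 2766 FPKM in Lenv-Treg and 2948 to 4195 FPKM in Ctrl-Treg. Lep, the fat hormone leptin, fell by 2.10 (adjusted p = 0.00039) and Adrb3 by 2.44 (adjusted p = 0.000105), while Fabp4 differed by 0.24 (adjusted p = 0.46). Of 17 tested sebaceous gland markers 2 rose and 9 fell (median -0.75; 6 fell after median-of-ratios scaling), though 4 fell without Ctrl-Treg 1 and 5 without Lenv-Treg 2, Lenv-Treg 3 or Ctrl-Treg 3, and 1 rose without Lenv-Treg 2 or Lenv-Treg 3. Their summed level was 5507 to 5522 FPKM in Lenv-Treg and 2504 to 3112 FPKM in Ctrl-Treg, most of it in Lenv-Treg from Fabp5 (4175, 4663 and 4285 FPKM in Lenv-Treg and 870.8, 648.5 and 913 FPKM in Ctrl-Treg), which keratinocytes also express. Pparg, a regulator of both sebocytes and adipocytes, fell by 1.04 (adjusted p = 0.000282) and Mc5r, a sebocyte receptor, by 1.34 (adjusted p = 0.000252). The levels of Mc5r were low, at 0.702, 0.343 and 0.348 FPKM in Lenv-Treg and 2.40, 2.70 and 2.96 FPKM in Ctrl-Treg. As deposited, 6 of the 17 tested sebaceous gland markers did not pass in either direction. Their differences were 0.07 for Elovl3 (adjusted p = 0.886), -0.05 for Awat1 (adjusted p = 0.925) and 0.17 for Dgat2l6 (adjusted p = 0.727). Acsbg1 differed by -0.05 (adjusted p = 0.838), Mgst1 by -0.04 (adjusted p = 0.84) and Cidea by -0.75 (adjusted p = 0.0951).

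Of 14 hair follicle markers 0 rose and 13 fell (median -6.48), with summed levels of 9.25 to 29.1 FPKM in Lenv-Treg and 1559 to 3364 FPKM in Ctrl-Treg. Of 8 markers of wound keratinocytes 7 rose (median 6.45), with 46020 to 62900 FPKM in Lenv-Treg and 542.8 to 983.2 FPKM in Ctrl-Treg. Most of that Lenv-Treg sum came from S100a8 and S100a9, with means of 21890 and 24390 FPKM, which neutrophils also express. The 10 keratinocyte markers summed to 7420 to 9252 FPKM in Lenv-Treg and 3167 to 4792 FPKM in Ctrl-Treg, with 2 higher and 3 lower. Of 11 tested neutrophil markers 10 rose and 0 fell (median 2.96), with summed levels of 38100 to 53810 FPKM in Lenv-Treg and 55.4 to 195.6 FPKM in Ctrl-Treg, of which S100a8 and S100a9, also among the wound keratinocyte markers, made up most in Lenv-Treg. Of 11 macrophage markers 5 rose and 2 fell (median 0.49, and 0.27 without Ctrl-Treg 3), with 8 higher and 1 lower after median-of-ratios scaling and 1 lower without Lenv-Treg 2 or Lenv-Treg 3. Their summed level was 3725 to 4218 FPKM in Lenv-Treg and 2401 to 3071 FPKM in Ctrl-Treg. Of 8 fibroblast markers 0 rose and 4 fell (median -0.63), with 2598 to 3699 FPKM in Lenv-Treg and 4828 to 6062 FPKM in Ctrl-Treg. With TPM 6 of the 8 fell, against 57.2% of all tested genes, and after median-of-ratios scaling 3 fell, against 16.3%. Of 12 skeletal muscle markers 0 rose and 1 fell (median -0.86), against 30.8% of all tested genes lower. With TPM 6 of the 12 fell, against 57.2% of all tested genes. The count of falls among the muscle markers was 2 without Lenv-Treg 1, 9 without Ctrl-Treg 3 and 0 without Lenv-Treg 2. Muscle markers summed to 3088 to 4503 FPKM in Lenv-Treg and 3577 to 11670 FPKM in Ctrl-Treg. The part of any of these cell types in the differences of the synthesis genes was not tested.

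**Figure D5:**
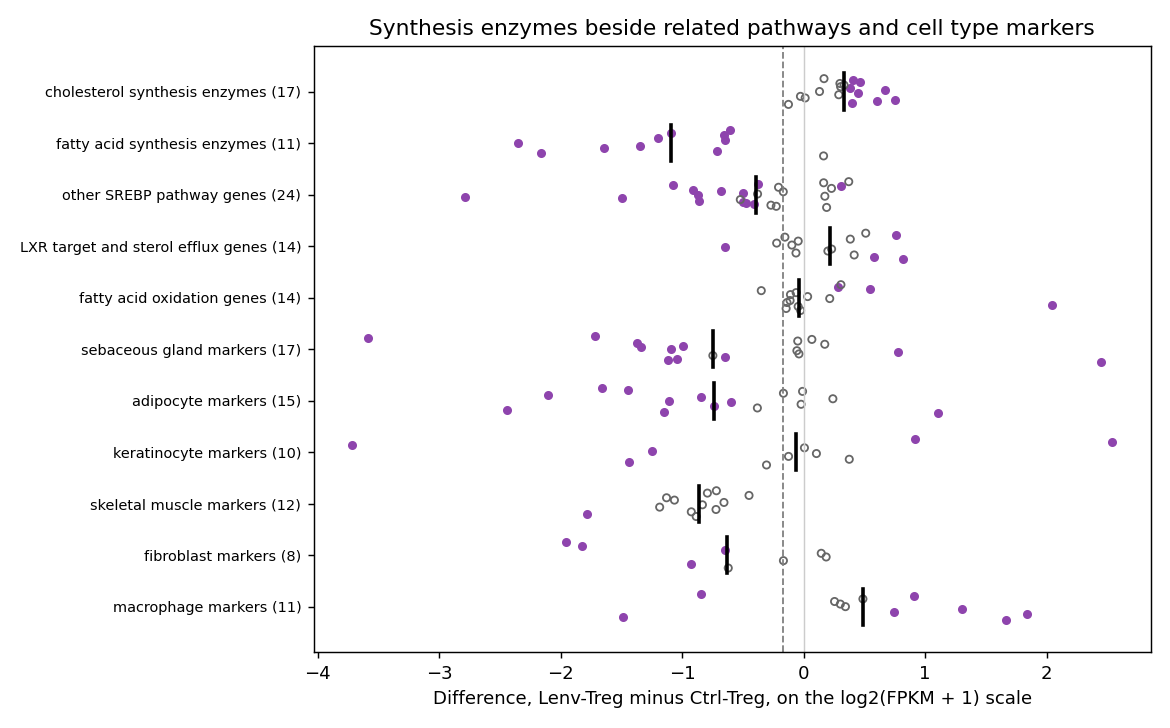
Difference of each tested gene on the log2(FPKM + 1) scale (Lenv-Treg minus Ctrl-Treg) in the lists of synthesis genes, related pathways and cell type markers, with filled points past the threshold, open points not, vertical offsets for legibility only, a black bar at each list's median and a dashed line at the median of all tested genes (-0.17). The fatty acid synthesis enzymes (median -1.09) lie mostly to the left of that line and the cholesterol synthesis enzymes (median 0.33) to its right.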

How the data were processed

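Gene FPKM values (fragments per gene over gene length and library depth) for 6 skin libraries, as deposited by the authors, were used. Per the submitters' processing notes, GRCm39 was the build. Aligner, counter, annotation and strand handling were not given in the sources used here, nor was any filter. Genes with at least 0.5 FPKM in at least 3 libraries were tested with limma 3.58.1 in R 4.3.3 (lmFit and eBayes with a trend) on log2(FPKM + 1), two-sided, without covariates, with Benjamini-Hochberg adjustment over 13945 genes and a threshold of 0.05. Each difference is that of Lenv-Treg less that of Ctrl-Treg and will understate changes of low genes. Folds are ratios of mean FPKM.

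FPKM steps gave whole reads (tolerance 0.005 reads plus 1.5e-07 per read), from which depth was recovered, with 579 genes of matching reference length setting the constant. Recovered reads summed to 98.89% to 99.11% of that depth. The procedure was tested on simulated data.

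The 32 genes, their roles and the other lists were chosen with earlier results of these data known. FPKM per library was given, in each role, for the 2 genes with the highest mean and the 2 others with the smallest adjusted p. Fads1, Fdft1, Hsd17b7 and the rest are given by difference. From each other list at most 4 genes were named by the same rule, and the 6 sebaceous gland markers that did not pass were named besides. The 4 promoters were chosen after the matches were seen. Alternatives were the pseudocount, the filter, 4 other scalings, the variance model, library weights, the replicate number as a block, voom on recovered reads, each library left out and a threshold of 0.01. Promoters came from RefSeq GRCm38.p6, a build other than that of the values.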

Additional observations from a re-analysis of the deposited data

How the results depend on the processing

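Across 20 alternatives, 578 of 640 comparisons of a gene's result kept direction and side of the threshold, and no called gene changed sign. Higher genes numbered 16 of 32 after median-of-ratios scaling, 2 with TPM, 3 at a threshold of 0.01, and 5 (without Lenv-Treg 2) to 12 (without Ctrl-Treg 3) with a library left out; lower genes numbered 11 to 12 with a library left out. The median of the 32 genes, 0.07, became 0.30 after median-of-ratios scaling and -0.21 with TPM, because scaling shifts all genes together. Among all tested genes, higher calls were 2548 after median-of-ratios scaling, 947 with TPM, 925 at 0.01 and 1152 to 1447 with a library left out, against 1532. Lower calls were 2275 after median-of-ratios scaling, 7970 with TPM, 2304 after quantile normalization, 2246 at 0.01 and 2780 (without Lenv-Treg 2) to 3900 with a library left out, against 4289. Sign changes touched 7 genes that did not pass: with TPM Hmgcs1 (-0.12), Lss (-0.14), Nsdhl (-0.27) and Scd2 (-0.12); after median-of-ratios scaling Msmo1 (0.21), Dhcr7 (0.10) and Srebf2 (0.048); with a constant sum without the top 100 genes Nsdhl (-0.0065). With a library left out, Msmo1 reached -0.12 to 0.076, Nsdhl -0.033 to 0.083 and Dhcr7 -0.31 to 0.056. Deviations of same-numbered libraries correlated at 0.196, -0.0109 and 0.328, and these 3 values cannot decide whether the numbers pair the samples. With the replicate block 9 of the 32 genes were higher and 12 lower, with 1637 and 4270 of all genes. Voom on recovered reads called 9 higher and 12 lower. The cause of each other change was not tested. Depth limits little here: the lowest value rested on 294 reads.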
